A study of Mus musculus with 6 samples.

Results

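The genes described here are 10 members of the solute carrier families that carry glucose and related sugars or acids in the kidney, namely Slc5a1, Slc5a2, Slc5a8, Slc5a10 and Slc5a12 of the sodium-coupled family and Slc2a1, Slc2a2, Slc2a4, Slc2a5 and Slc2a9 of the facilitative family. Accessible intervals were taken for each gene from 3 kb upstream of the gene start to the gene end, which gave 159 of the 279569 distinct intervals in the pooled peak call. All 10 genes held at least 1 interval. ATAC-seq, in which the Tn5 transposase inserts adapters into open chromatin, was run on nuclei from kidney cortex of mice without induced injury, labelled as controls. The groups were WT and Acly conditional knockout (Acly cKO) animals, with 3 libraries each mapped here. By the methods, both carried floxed Acly alleles, and the Acly cKO mice also carried Ksp-Cre, a transgene driven by the promoter of a cadherin of the tubule epithelium. Cells outside the tubule thus kept ACLY, the enzyme that makes acetyl-CoA from citrate. The labels give batches 1 and 2 to WT and batches 4 and 5 to Acly cKO, which means that genotype cannot be told apart from batch.

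The deposited call pooled the libraries without a column for any of them. Each value below is therefore 1 value for the pool, with no replicate error, no depth per library and no comparison of WT with Acly cKO. Fold enrichment is the height of the signal at a summit over the background of the call, and the -log10 q is its significance as the caller wrote it. In bulk tissue, fewer cells with an open site and less opening per cell cannot be told apart.

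Glucose filtered at the glomerulus is taken back across the apical membrane of the proximal tubule by sodium-coupled carriers, SGLT2 early and SGLT1 late along the segment. It then leaves the cell at the basolateral side through facilitative GLUT carriers that run down the glucose gradient. Relatives in both families move fructose, mannose, lactate or urate, and the factor HNF4 is a known activator of proximal tubule genes.

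Sequences at the starts of the 2 apical carriers and of the main basolateral carriers are shown first, since they differ in CpG content and in signal. Each is the 200 bases just before the canonical start, from GRCm39, read 5′ to 3′ on the strand of the gene, and capitals mark exact matches to a GC box (GGGCGG) or an E-box (CACGTG) on either strand.
Slc5a2, chr7:127864648-127864847, plus strand: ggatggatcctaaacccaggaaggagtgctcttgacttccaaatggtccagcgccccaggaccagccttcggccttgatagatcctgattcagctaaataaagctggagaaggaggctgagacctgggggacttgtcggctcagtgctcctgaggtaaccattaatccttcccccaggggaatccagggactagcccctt
Slc5a1, chr5:33261363-33261562, plus strand: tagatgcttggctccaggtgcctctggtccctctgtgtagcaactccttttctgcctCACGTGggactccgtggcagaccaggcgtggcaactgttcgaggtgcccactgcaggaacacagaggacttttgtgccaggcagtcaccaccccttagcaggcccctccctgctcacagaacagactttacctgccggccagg
Slc2a2, chr3:28751851-28752050, plus strand: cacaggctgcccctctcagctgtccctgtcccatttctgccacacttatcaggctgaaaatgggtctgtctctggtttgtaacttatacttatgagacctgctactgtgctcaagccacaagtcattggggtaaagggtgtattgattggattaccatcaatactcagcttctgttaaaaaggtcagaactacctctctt
Slc2a1, chr4:118965708-118965907, plus strand: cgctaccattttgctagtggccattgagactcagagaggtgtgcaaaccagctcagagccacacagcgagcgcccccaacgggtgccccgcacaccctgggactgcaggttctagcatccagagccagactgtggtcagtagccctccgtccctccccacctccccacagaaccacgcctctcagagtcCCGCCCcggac
The Slc2a2 stretch held 0 CpG dinucleotides and the Slc5a2 stretch held 3, against 5 at Slc5a1 and 9 at Slc2a1. The median over 21757 protein-coding genes was 7. A GC box lay within the 200 bases at Slc2a1 and an E-box at Slc5a1, while Slc5a2 and Slc2a2 held neither.

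The canonical start lay inside an interval at all 10 genes. The same held for 71.2% of protein-coding genes, so the count is not far from what genes in general show. An interval with a fold enrichment of 10 or more was found at 9 of the 10 genes, all but Slc5a2, against 67.0% of protein-coding genes. Signal right at the start was modest against other genes with a summit there. The highest summit within 500 bp of the start had a median fold enrichment of 13.2 over the 10 genes, with a lowest value of 2.82 and a highest of 50.5. Over the 16011 protein-coding genes with such a summit, the median was 28.1 and the quartiles were 10.2 and 46.2. Thus 8 of the 10 genes lay under the median of all such genes, and Slc2a1 and Slc2a9 lay over it. Against all protein-coding genes, those without such a summit included, the 10 genes lay on both sides of the middle. From 32.0% (Slc2a5) to 84.8% (Slc2a1) of genes lay below them, and 52.1% lay below Slc2a4.

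**Figure D1:**
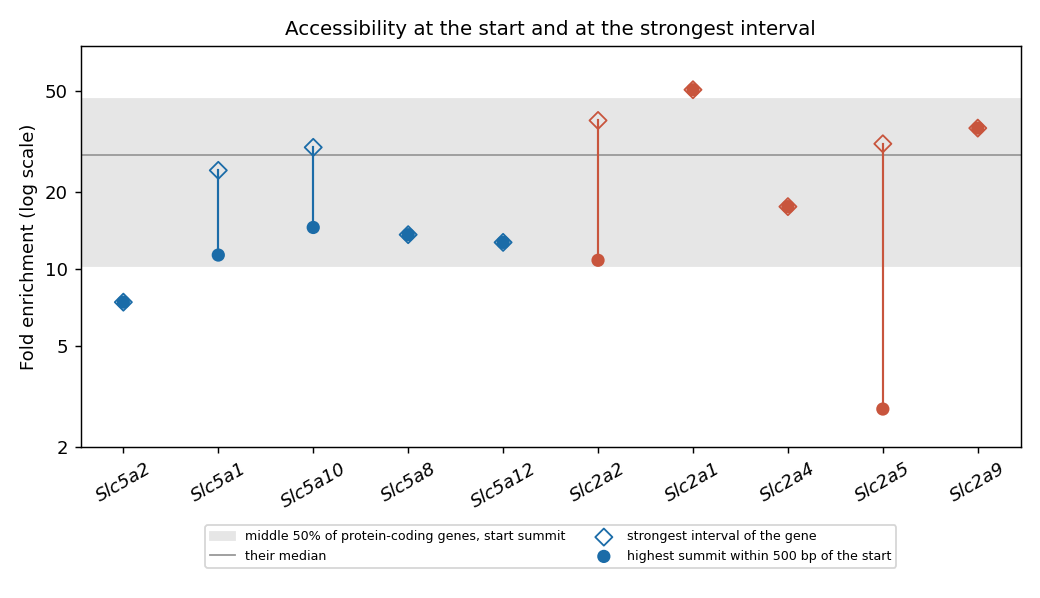
Fold enrichment (log scale) for each gene at the highest summit within 500 bp of the canonical start (filled circles) and at its strongest interval (open diamonds), with Slc5 genes in blue and Slc2 genes in red. The grey band and line give the quartiles and median of start summits over protein-coding genes; the gap between both marks is widest at Slc2a5, from 2.82 to 31.0.

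Slc5a2 encodes SGLT2, the carrier that recovers most filtered glucose. Its start interval, 3142 bp long with 8 summits, reached 7.40-fold enrichment at a -log10 q of 58.0, and the highest summit lay at -62 bp, where negative positions are upstream of the canonical start. This summit falls inside the stretch printed above. Of all protein-coding genes, those without a start summit included, 41.6% lay below Slc5a2. The next interval, in intron 10, reached 3.08, one over coding exon 7 reached 2.42, and the last 2, inside an overlapping gene, Rusf1, stayed at 1.96 and 1.83. No interval of 10 or more was therefore found within this short gene, although 58.5% of its region was covered by intervals. The chief SGLT gene of the kidney thus had the weakest strongest interval of the 10 genes.

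Slc5a1 encodes SGLT1, which recovers what SGLT2 leaves and is also the main intestinal glucose carrier. The start interval reached 11.3-fold enrichment at a -log10 q of 118, with its summit at 113 bp. A higher value, 24.4, was found in intron 2 at 17873 bp, in an interval of 1145 bp with 1 summit. Away from these, the highest value was 6.68 in intron 6. Slc5a1 therefore carried its main signal inside the gene, at 1 summit, and intervals covered only 13.7% of its region.

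Slc5a10 encodes SGLT5, a carrier of mannose and fructose in the proximal tubule. Its start interval spanned 5049 bp with 13 summits. The highest, 30.0, lay at -2330 bp, while the best summit near the canonical start reached 14.5 at -119 bp. A coding transcript that starts at -802 bp had a summit of 16.6 nearby. Within the gene, 2 sites in intron 9 reached 23.4 and 22.8. The former interval held the start of Fam83g and the latter lay inside the body of Fam83g, so neither can be told apart from signal of Fam83g. An interval of 11.2 in intron 5 lay outside that gene.

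Slc5a8 and Slc5a12 encode sodium-coupled carriers of lactate and other monocarboxylates, the former of higher and the latter of lower affinity. At Slc5a8 the start summit had a fold enrichment of 13.6 at -54 bp. The next interval, in intron 1 at 2638 bp, reached 6.48, and the remaining 4 lay between 1.83 and 1.90. With 1.29 intervals per 10 kb, Slc5a8 was the only gene of the 10 under the median of all genes, 1.86.

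Slc5a12 differed from Slc5a8 in density. It held 30 intervals, or 5.45 per 10 kb, more than 94.1% of protein-coding genes. As at Slc5a8, only the start interval was strong, at 12.7 with its summit at -214 bp. The next, in intron 1, reached 5.17, and 25 of the 30 had a fold enrichment under 3. The signal was thus many weak intervals along the whole gene rather than several strong ones. The 5 Slc5 genes had start summits in a narrow range, from 7.40 to 14.5, whereas those of the 5 Slc2 genes ran from 2.82 to 50.5.

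**Figure D2:**
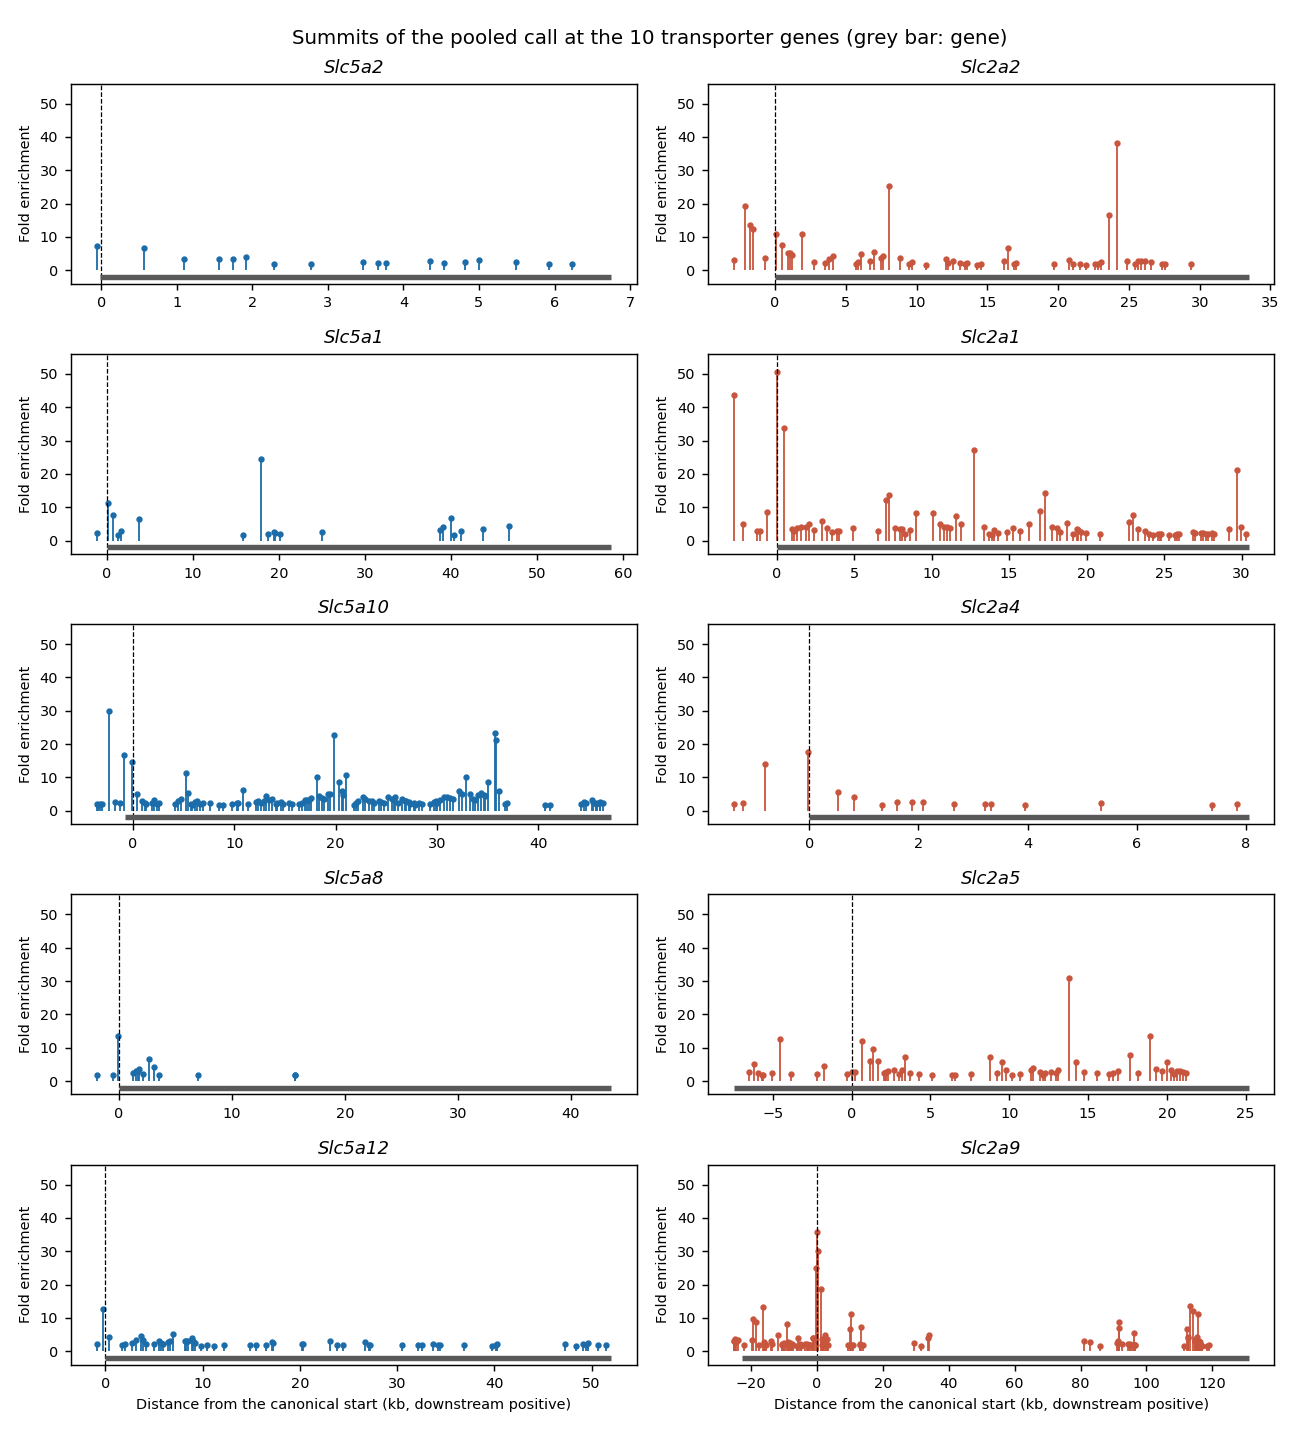
Fold enrichment of every summit in the region of each gene against its distance in kb from the canonical start (dashed line), with the gene drawn as a grey bar and positive distances downstream. Slc5a8 and Slc5a12 have their one tall summit next to the start, at 13.6 and 12.7, while Slc5a1, Slc2a2 and Slc2a5 have their tallest summit within an intron, at 24.4, 38.2 and 31.0.

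Slc2a2 encodes GLUT2, the low-affinity carrier through which glucose leaves early proximal tubule cells. The summit at the start was low, 10.8 at 92 bp. The interval around it ran for 6331 bp, and its highest summit, 19.3, lay at -2140 bp. Higher values were found within the gene, 38.2 in intron 8 at 24129 bp and 25.2 in intron 2 at 8054 bp. Slc2a2 was thus one of 3 genes, with Slc5a1 and Slc2a5, whose strongest interval was not the one at the canonical start. Among the 18102 protein-coding genes with any interval, this held for 33.0%, so 3 of 10 is near the background.

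Slc2a5 encodes GLUT5, a fructose carrier. Near its canonical start, which follows a GC-rich stretch with 12 CpG dinucleotides, the best summit reached only 2.82 at 40 bp, the lowest of the 10 genes. The start interval nonetheless had a fold enrichment of 12.0, because its highest summit lay at 660 bp in the 5′ UTR of exon 2. The strongest interval of Slc2a5 was in intron 6 at 13781 bp, with 31.0. It was followed by 13.6 in intron 7 and 12.6 at -4540 bp. A coding start at 1002 bp lay in the start interval, with the summit of 12.0 within 500 bp of it. The most upstream of its 4 coding starts, at -7472 bp, lay in no interval, and no summit was found within 500 bp of it.

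Strong sites away from the start are shown for Slc5a1 (intron 2), Slc2a5 (intron 6) and Slc5a10 (upstream), each the highest of its gene, and for Slc2a2 (intron 2), where the higher site in intron 8 overlaps untranslated sequence of a transcript and is not printed. Each is given as 200 bases around the summit, from GRCm39 on the strand of the gene. Capitals mark an E-box.
Slc5a1, chr5:33279336-33279535, plus strand: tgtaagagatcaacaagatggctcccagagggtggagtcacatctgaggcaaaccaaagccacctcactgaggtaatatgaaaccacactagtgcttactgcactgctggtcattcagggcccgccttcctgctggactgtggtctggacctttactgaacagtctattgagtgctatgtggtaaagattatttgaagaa
Slc2a2, chr3:28760005-28760204, plus strand: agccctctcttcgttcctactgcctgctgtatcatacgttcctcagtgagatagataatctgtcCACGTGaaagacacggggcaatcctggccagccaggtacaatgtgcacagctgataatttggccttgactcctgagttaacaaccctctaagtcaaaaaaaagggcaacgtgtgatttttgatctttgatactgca
Slc2a5, chr4:150217421-150217620, plus strand: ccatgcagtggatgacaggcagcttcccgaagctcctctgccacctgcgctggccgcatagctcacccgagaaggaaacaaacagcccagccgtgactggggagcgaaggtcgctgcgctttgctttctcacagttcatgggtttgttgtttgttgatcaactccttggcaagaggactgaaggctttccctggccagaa
Slc5a10, chr11:61613053-61613252, minus strand: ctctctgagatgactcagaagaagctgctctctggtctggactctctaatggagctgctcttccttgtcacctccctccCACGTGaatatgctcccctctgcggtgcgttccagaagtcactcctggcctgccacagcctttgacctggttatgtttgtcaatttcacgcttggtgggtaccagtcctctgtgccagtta
An E-box lay at Slc2a2 and Slc5a10, and none of the 5 motifs searched was found in the 200 bases at Slc5a1 and Slc2a5. In the wider windows of 300 bases, an E-box was present in the strongest interval of 2 of the 10 genes, Slc5a10 and Slc2a2, and in 5.28% of all intervals. A GC box was present in that of 4 genes, Slc5a1, Slc5a8, Slc2a1 and Slc2a4, against 10.1% of all intervals and 66.2% of those at canonical starts. The TATA box (TATAAA) was found at Slc2a1 only, against 11.8% of all intervals. The HNF4 core (CAAAGTCCA) and the MEF2 motif (CTAAAAATA) were found in 0 of the 10 strongest intervals, against 1.05% and 0.517%. Over all 159 intervals, the HNF4 core was found in 2, or 1.26%, in intron 3 of Slc2a9 and intron 8 of Slc5a10. Intervals that hold a canonical start include 7 of the 10 strongest. Over all genes, the shares in such intervals were 9.46% for the E-box, 4.42% for the TATA box, 0.493% for the HNF4 core and 0.164% for the MEF2 motif. The windows lie around the highest summit, which at Slc5a10 is at -2330 bp, so the E-box there is not next to the canonical start.

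Slc2a1 encodes GLUT1, the carrier for basal glucose uptake in most cell types, which in the tubule lies mainly beyond the early segment. It had the highest start summit of the 10 genes, 50.5 at 7 bp with a -log10 q of 1005. Of all protein-coding genes, 84.8% lay below it. The start interval ran for 8023 bp with 21 summits, and a further summit of 43.5 lay at -2764 bp within it. The other 3 intervals over 10 had 27.2 and 14.1 in intron 2 and 21.1 in the 3′ UTR of exon 10. Intervals covered 86.1% of the Slc2a1 region. That exceeded the share in 93.9% of protein-coding genes, whose median was 16.7%.

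Slc2a9 encodes GLUT9, which carries urate more than glucose. Its start summit was the second highest, 35.7 at 87 bp. It also had the most intervals, 35, but over a long gene, at 2.23 per 10 kb. Of its 8 coding starts, the 3 farthest upstream, between -22837 and -21773 bp, lay in no interval. The start at -11655 bp lay in an interval with a summit of 4.98 nearby, and that at -3079 bp had 2.23. Signal at Slc2a9 was thus concentrated at the canonical start and the 2 coding starts within 175 bp downstream of it. Farther away, 13.6 was reached in intron 10, 13.4 at -16500 bp and 11.1 in intron 2.

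Slc2a4 encodes GLUT4, the insulin-responsive carrier of muscle and fat. Its start interval had a fold enrichment of 17.5, with the summit at -28 bp. Among highest summits within 500 bp of the start, this was the third of the 10 genes. A second interval of 15.9 overlapped the end of the region, but it held the starts of Eif5a and Ybx2, and its highest summit lay outside the region of Slc2a4. No other interval of the gene passed 3.14. The short region had the highest density, 7.23 intervals per 10 kb, more than in 99.0% of protein-coding genes. With only the 6 intervals whose highest summit lay inside the region, it was 5.42, under the 5.45 of Slc5a12.

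Across the 10 genes, the density had a median of 3.77 intervals per 10 kb against 1.86 over all protein-coding genes, and 9 genes lay over that median. The share of a region inside intervals had a median of 51.3% against 16.7%, and 8 genes lay over it. At Slc5a10, its 73.0% includes intervals with their highest summit in the body of Fam83g, and the share was not computed without them. Of the 159, 94 had a fold enrichment under 3 and 25 reached 10, shares of 59.1% and 15.7% against 59.0% and 12.3% over all intervals. Their median fold enrichment was 2.42 against 2.55 over all intervals, and their median width 469 bp against 434 bp. Against the canonical transcript, the highest summit lay in an intron for 112, upstream for 27, in an exon for 18 and downstream for 2. Some summits classed as upstream at Slc2a9 and Slc2a5 lay inside the annotated gene, as did that at 7388 bp classed as downstream at Slc2a4. The regions thus held more intervals and more covered sequence than the median gene, while single intervals were of about average strength. This was not particular to them. Among the marker genes used below, median density was 4.59 for the thick ascending limb and 3.83 for the collecting duct. It was lower for the proximal tubule (2.26), immune cells (2.54), podocytes (1.57) and endothelium (1.21). Coverage at the proximal tubule markers ran from 15.8% at Slc22a6 to 90.2% at Aqp1. No test was made of these differences.

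**Figure D3:**
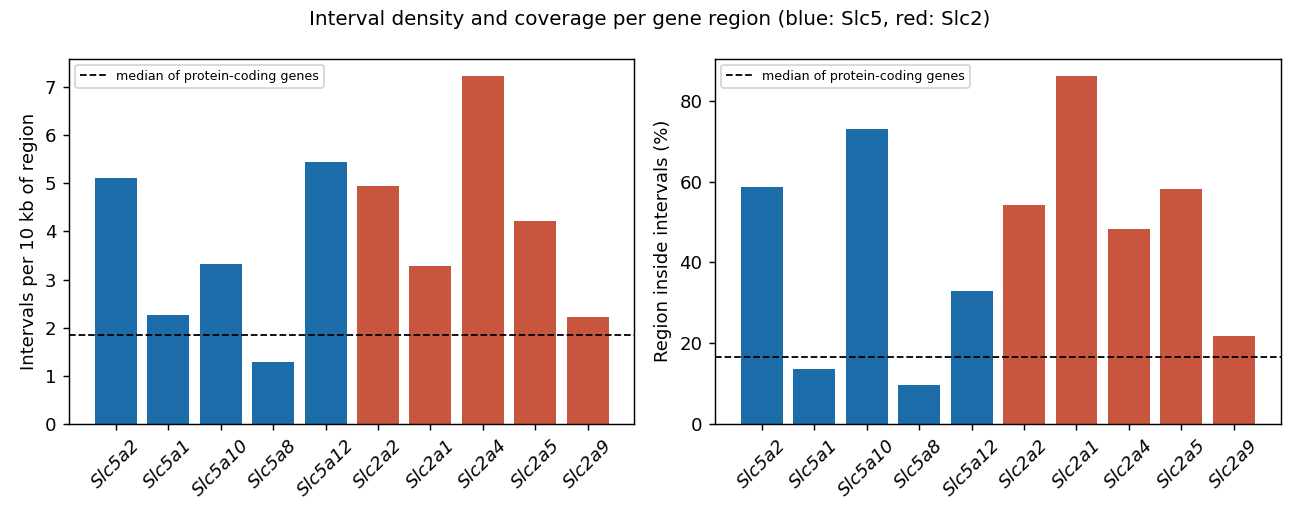
Intervals per 10 kb of region (left) and percent of the region inside intervals (right) for each gene, with bars starting at 0 and the dashed line at the median of protein-coding genes, 1.86 and 16.7%. Slc2a4 stands highest in density at 7.23, though not with the 6 intervals whose highest summit is inside the region (5.42), and Slc2a1 in coverage at 86.1%, and Slc5a8 lies under the line in both.

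CpG dinucleotides in the 200 bases before the start were few at most of these genes, and 7 of the 10 lay under the median of all genes. CpG-rich starts are as a rule open in most cell types. In this call, among genes with a summit within 500 bp of the start, the median summit was 6.02 at 0 to 3 CpG. It was 23.0 at 4 to 9 and 37.9 at 10 or more. Such a summit was present at 2883 of 7532, 4881 of 5790 and 8247 of 8435 genes of these classes. The 5 genes with 0 to 3 CpG were Slc5a2, Slc5a10, Slc5a12, Slc2a2 and Slc2a9. Their start summits of 7.40, 14.5, 12.7, 10.8 and 35.7 all exceeded the median of their class. Of the 4 genes with 4 to 9, Slc5a1 at 11.3, Slc5a8 at 13.6 and Slc2a4 at 17.5 lay under the median of theirs. Slc2a1 at 50.5 lay over it. Slc2a5, with 12, lay far under the median of its class. These values are a description across genes, which share 1 pool and are not replicates.

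Among the other 15 genes of both families, the canonical start lay inside an interval at 12, and 11 had an interval of 10 or more. Over all protein-coding genes the shares were 71.2% and 67.0%, so both counts are near the background. The exceptions at the start included Slc5a4a, which had 0 intervals. The start summit had a median of 26.3 among those with one, about the 28.1 of all genes with one, and the highest was 66.3 at Slc5a6, a vitamin carrier. All 6 partners and regulators of the pathway, among them the SGLT2 subunit gene Pdzk1ip1, had an interval at the start, against 71.2% of protein-coding genes. Their start summits ran from 22.8 to 57.0, the latter at Pdzk1ip1. The subunit gene thus had a far higher start summit than Slc5a2 itself, 57.0 against 7.40.

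**Figure D4:**
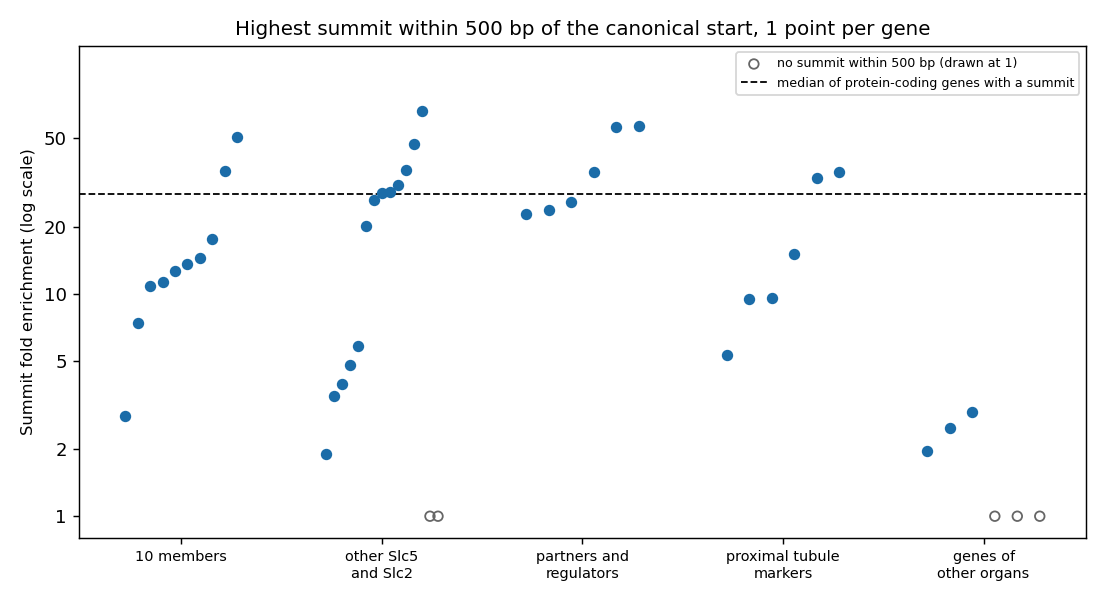
Fold enrichment (log scale) of the highest summit within 500 bp of the canonical start, 1 point per gene, for the 10 genes, the other 15 Slc5 and Slc2 genes, 6 partners and regulators, 6 proximal tubule markers and 6 genes of other organs. Genes without such a summit are open circles at 1, and the dashed line is the median of protein-coding genes with one, 28.1; genes of other organs stay at or under 2.95.

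The labelled tissue was checked on marker genes. All 6 proximal tubule markers, such as Lrp2 and Aqp1, had an interval at the start, with start summits from 5.30 to 35.1 and a median of 12.3, close to the 13.2 of the 10 genes. The starts of both markers of the thick ascending limb, both of the collecting duct, all 3 of podocytes, both of immune cells and 2 of 3 of endothelium also lay in intervals. Over all protein-coding genes, 71.2% of starts did. Of 6 genes of other organs, 2 starts did, and none of their start summits exceeded 2.95. Some markers of kidney cells outside the tubule were as low, with start summits of 1.90 at Ptprc (immune cells) and of 2.03 at Pecam1 and 2.75 at Emcn (endothelium), so a low start summit does not separate these lists from genes of other organs. The regions of the genes of other organs were not free of signal, since 3 of the 6 held an interval of 10 or more away from the start. The part that each cell type had in the values above was not tested.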

How the data were processed

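ATAC-seq libraries were grouped by genotype from the labels. By its peak names, the single deposited call is a pool of the libraries, which it does not name. The methods give 5 WT libraries, and it is not known whether those not mapped here entered the pool. Per the methods, fastp was used for trimming and Bowtie2 2.3.4.3 for alignment to mm39. The authors removed duplicates, kept unique reads, called peaks with MACS3 3.0.0 at q 0.05 and removed blacklisted regions with BEDTools 2.29.1. They used an extension of 200 bases and a shift of 100 bases whose sign is not clear in print, so a summit may lie off the cut sites by a distance of that order.

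The deposited fold enrichment is a linear ratio of pileup to background that the authors' caller computed at each summit. The deposited -log10 q was written by the same caller, as was the distance of each summit from the interval start. All fold enrichments under 20 were whole multiples of 0.0655, within 10% of a step, and each of the 1549 steps had 1 q, so both columns rank intervals alike. Depth per library is unknown.

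Rows with the same chromosome, start and end were 1 interval and took the highest summit by q. Genes, canonical starts and exons came from GENCODE M39 and sequences from GRCm39, with coordinates counted from 1. All 560 summits in the 10 regions were also in the list before filtering. Motifs were searched as exact letters on both strands in 300 bases around the highest summit, and E-boxes read the same on both strands. Printed stretches avoid untranslated sequence. Some genes of the partner list and a motif are not reported here. The shares of motifs were taken over 279569 intervals. No test was run, as there was 1 pool. The genes and lists were chosen with earlier results of these data known. All 10 genes were named by rule, with other genes where their start lay in a described interval, as the extremes of a list or as tissue markers. Rusf1, whose body overlaps intervals of Slc5a2, was named after its values were seen. The start of another protein-coding gene was sought within each interval, and starts of noncoding genes were not. Scripts were tested on simulated data and run with Python 3.11.15, numpy 2.4.6, pandas 2.3.3 and matplotlib 3.10.9.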

Additional observations from a re-analysis of the deposited data

How the results depend on the processing

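The count of 159 intervals depended on the threshold. It was 83 with a -log10 q of at least 5, 40 with a fold enrichment of at least 5 and 560 when summits were counted. With 1 kb upstream, 10 kb on either side or the highest summit inside the region, it was 154, 211 and 157. The counts of 10 starts in intervals, 9 genes with an interval of 10 or more and 3 genes with the strongest interval away from the start did not move. Taking the start of any coding transcript could not have lowered the first count, since the canonical start is among them. For the last 2 counts, thresholds on q or fold enrichment and ranking by fold enrichment could not have moved them, so only the other regions, starts and left-out intervals bear on them. The alternatives for the last count, the density of intervals with their highest summit in the region and the counts without intervals that hold another gene's start were added after the data were seen. Without such intervals, 157 intervals remained. Other window lengths and mismatches, meant for the motif that is not reported, are left out too. The count of family genes with a start in an interval ran from 9 to 13. Of 60 counts for single genes, 31 moved by over 1.5 times, 18 down and 13 up, and 0 genes lost all intervals at a fold enrichment of at least 5. No paired analysis was possible because the call has no column per library, and for the same reason no replicate could be left out. The unknown depth of the pool limits what a weak interval or its absence can show.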

Other observations

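Strong intervals also lay outside the regions described. Within 50 kb of the 10 regions, 116 intervals had a summit in no protein-coding gene and held no start of one. A fold enrichment of 10 or more was reached by 17 of these 116, a share not far from the 12.3% of all intervals. Slc2a2, which encodes GLUT2, had 4 of the 17. A pair downstream reached 26.4 at 36985 bp and 26.3 at 39257 bp from the canonical start, and another reached 17.8 at 48403 bp. These exceed the 10.8 of the summit at the start of Slc2a2 itself, but not the 38.2 of its strongest interval. The pair also exceeds the 19.3 of the highest summit in the start interval, while the 17.8 does not. Upstream of Slc5a1, which encodes SGLT1, 21.3 was reached at -47948 bp, 21.0 at -50848 bp and 12.0 at -8713 bp. The start of Slc5a1 reached 11.3 and its strongest interval, in intron 2, reached 24.4.

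Slc2a5 had the highest such value, 26.9. At Slc5a2 the highest was 12.2 at 56195 bp, also over the 7.40 at its start. Flanks of Slc2a4 and Slc5a8 were weak, with no value over 3.99 and 7.53. The files do not link any of these intervals to a gene, and the share of such intervals around other genes was not computed.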
